A study of Homo sapiens with 4 samples.

Results

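The collagen genes of MCF10A, a human breast epithelial cell line that forms no tumours, were followed through an ATAC-seq data set. ATAC-seq counts insertions of a transposase into open DNA. Members are all regions of the authors' deposited table whose nearest gene has a symbol made of COL, a number, A and a number, with the hemidesmosome gene COL17A1 left out. The rule reads names and no measured value. It gave 121 of 58127 regions, at 32 genes, and the nearest gene need not be the gene that a region serves. The study set cells with a control hairpin (label shNC, libraries A and B) beside cells with knockdown of the long noncoding RNA SNHG8d (label shG8d, libraries A and B). All 4 libraries come from the same cell line. The labels do not say whether A and B were separate cultures or whether a line was 1 clone, so a p-value here speaks for the spread of the libraries alone, and that spread may be technical.

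Labels and libraries do not match throughout the table. Each column is a whole number of reads times a step of its own, and the step identifies a library. The pair with steps of 0.842 and 0.807 normalized counts per read, called the deeper pair, carries the label shG8d in the common regions and the label shNC in the regions listed as specific to either group. The shallower pair, with steps of 1.21 and 1.17, carries the other label each time. Which labelling is right is not known. Every difference is therefore given as deeper minus shallower pair on the log2(normalized count + 1) scale, nothing is assigned to the knockdown, and the region sets are counted apart. The deeper libraries held 8124488 (A) and 8111839 (B) reads in regions, and the shallower ones 4457248 (A) and 4344212 (B). A count of 0 would allow up to 3 reads, which is 2.42 to 3.62 normalized counts, for counting error only.

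Collagens are secreted or membrane proteins whose chains wind into a triple helix. Epithelial cells of the breast rest on a basement membrane, a sheet built on a network of type IV collagen and tied to the stroma by anchoring fibrils of type VII collagen. The fibrillar collagens, such as types I and III, are best known as products of stromal cells, and type II as a product of cartilage. Open DNA at a promoter or a distal region permits transcription but does not measure it.

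The promoters that the results turn on are shown as RefSeq gives them (GRCh38.p14, 250 bases before to 50 after the start). RefSeq windows matched 31 of 43 collagen genes and 11 of the 12 genes at a collagen promoter region. The deposited regions use hg19 and may refer to another start. COL4A1 (chr13:110307108-110307407, minus strand) is shown because its promoter was the collagen promoter that differed between the pairs, COL4A5 (chrX:108439588-108439887, plus strand) as a type IV promoter that did not pass the test, and COL12A1 (chr6:75206004-75206303, minus strand) as the collagen promoter among the common regions. Capitals mark the GC box GGGCGG and the CCAAT box CCAAT, read on either strand.
COL4A1: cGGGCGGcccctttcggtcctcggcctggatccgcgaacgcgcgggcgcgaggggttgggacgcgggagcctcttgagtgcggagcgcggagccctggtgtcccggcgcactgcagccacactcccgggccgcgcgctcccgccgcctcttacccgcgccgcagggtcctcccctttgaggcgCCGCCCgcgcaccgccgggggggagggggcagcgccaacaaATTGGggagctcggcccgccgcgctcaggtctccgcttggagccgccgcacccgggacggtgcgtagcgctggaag
COL4A5: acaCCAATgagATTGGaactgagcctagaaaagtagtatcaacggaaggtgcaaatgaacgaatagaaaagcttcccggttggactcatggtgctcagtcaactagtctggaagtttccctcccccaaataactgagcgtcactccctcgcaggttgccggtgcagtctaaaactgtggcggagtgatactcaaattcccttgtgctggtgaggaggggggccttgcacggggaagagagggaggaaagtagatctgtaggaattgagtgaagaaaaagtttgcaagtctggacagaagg
COL12A1: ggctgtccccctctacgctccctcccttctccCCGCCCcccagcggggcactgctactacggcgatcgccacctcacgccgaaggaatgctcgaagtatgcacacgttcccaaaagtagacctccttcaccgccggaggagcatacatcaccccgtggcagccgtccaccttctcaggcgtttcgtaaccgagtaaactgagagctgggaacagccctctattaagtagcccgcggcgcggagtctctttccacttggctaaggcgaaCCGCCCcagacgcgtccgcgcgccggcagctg
COL4A1 held 2 GC boxes and 1 CCAAT box, COL4A5 held 2 CCAAT boxes and no GC box, and COL12A1 held 2 GC boxes. Of 27305 RefSeq windows of 300 bases, 44.6% hold a GC box and 35.7% a CCAAT box. The letters of the TATA box TATAAA (in 12.0% of windows) and of the AP-1 motif TGANTCA (in 7.76%) are not in these 3 windows. The GC content was 76.7% in COL4A1, 49.3% in COL4A5 and 63.3% in COL12A1, beside a median of 58.3% over all windows. Type IV genes stand head to head in pairs. COL4A1 and COL4A2 start 127 bp apart in RefSeq and their windows share 226 bases, while COL4A3 and COL4A4 start 419 bp apart and COL4A5 and COL4A6 380 bp apart. A region at such a promoter cannot be given to 1 gene of the pair.

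Most collagen regions lay far from a start site. Of the 121, 65 (53.7%) were at least 50000 bp from the nearest start, against 27.6% of all regions, and the median distance was 55387 bp against 17895 bp. Introns held 65 collagen regions (53.7%, against 39.8% of all regions), intergenic DNA held 44 and promoters 10 (8.26%, against 16.5%). Of the 65 intronic regions 60 lay in the collagen gene itself, and the other 5 in DEPTOR (named for COL14A1), DST (COL21A1), MFF-DT (COL4A3) and, with 2 regions of COL8A1, MIR548G. By set, 63 regions were common, 54 shNC-specific and 4 shG8d-specific. The 6 genes with the most regions, COL22A1 (21), COL8A1 (11), COL6A3 (10), COL13A1 and COL21A1 (9 each) and COL4A6 (8), held 68 of the 121. No region bears the name of 11 of the 43 collagen genes, which are not analysed here: COL3A1, COL5A1, COL5A3, COL11A2, COL24A1, COL6A1, COL6A2, COL6A6, COL10A1, COL20A1 and COL26A1.

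The cell type was checked on marker promoters. A promoter region was found for 6 of 8 basal epithelial markers (KRT5, KRT14, KRT17, CDH1, ITGB4 and LAMB3), 1 of 8 fibroblast markers (PDGFRA), 0 of 5 endothelial and 0 of 5 leukocyte markers. The 6 epithelial promoters summed to 826 and 727 normalized counts (deeper A and B) against 539 and 504 (shallower A and B). Of the 6, CDH1 and ITGB4 passed the test described below as higher in the deeper pair. PDGFRA had 36.2 and 46.0 against 32.6 and 19.9 (log2 difference 0.66, limma adjusted p = 0.186). The part of these marker levels in the collagen differences was not tested.

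Across the collagen regions 17 of 121 differed between the pairs, 6 higher and 11 lower in the deeper pair, where 11.1% and 12.4% of all 58127 regions did so (limma's moderated test over all regions, Benjamini-Hochberg adjusted p under 0.05). The 17 lay at 10 genes, and COL22A1 and COL8A1 had calls in both directions. Among the 62 common regions other than promoters 3 were higher (4.84%, where 8.53% of all such regions were) and 10 lower (16.1%, where 15.8% were). The lower share was thus near the background and the higher share below it. Common introns had 8 of 33 lower (24.2%, background 16.1%) and 1 higher (background 8.44%), and common intergenic regions 2 of 28 in each direction (backgrounds 15.8% lower and 8.04% higher). In the shNC-specific set 2 of 45 regions other than promoters were higher (4.44%, background 10.8%) and 0 lower (background 0.986%), with 8 higher and 4 lower at an unadjusted p under 0.05 and 1 lower by limma voom. In the shG8d-specific set 1 of 4 was lower and 0 higher (backgrounds 70.1% and 0.00%), and all 4 were lower at an unadjusted p under 0.05. The specific sets are lists by label group, and direction goes with the list. Below 0 lay 99.4% of all shG8d-specific regions, and of all shNC-specific ones 13.2% were higher and 0.979% lower. The direction of a call in these sets is therefore no independent result. With all libraries scaled to equal totals the split became 2 higher (1.65%) and 38 lower (31.4%), where 4.44% and 28.1% of all regions were called, and the median of all regions moved from -0.02 to -0.36.

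The median log2 difference was -0.35 for the 63 common collagen regions and -0.12 for all common regions, and 43 of the 63 (68.3%) lay below 0 against 58.1% of all. Of the 63, 62 were not promoters, while the 33913 common regions included 6542 promoters. Among common regions other than promoters the medians were -0.37 (collagen) and -0.16 (all), with 69.4% and 61.1% below 0. With equal totals the medians of the 63 and of all common regions were -0.70 and -0.47. This scaling moves every region by nearly the same amount, so it could not reverse their order. In the shNC-specific set the medians were 0.23 and 0.24 and turned to -0.12 and -0.10 with equal totals. In the shG8d-specific set they were -1.06 and -1.20, and -1.40 and -1.54 with equal totals. The libraries of the pairs did not overlap at 43 of 63 common collagen regions (68.3%, background 67.1%), at 22 of 54 shNC-specific ones (40.7%, background 53.4%) and at 4 of 4 shG8d-specific ones (background 95.0%). In the authors' deposited table the unadjusted p was under 0.05 at 15 of 63 (background 26.3%), 5 of 54 (background 14.7%) and 2 of 4 (background 72.3%).

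**Figure D1:**
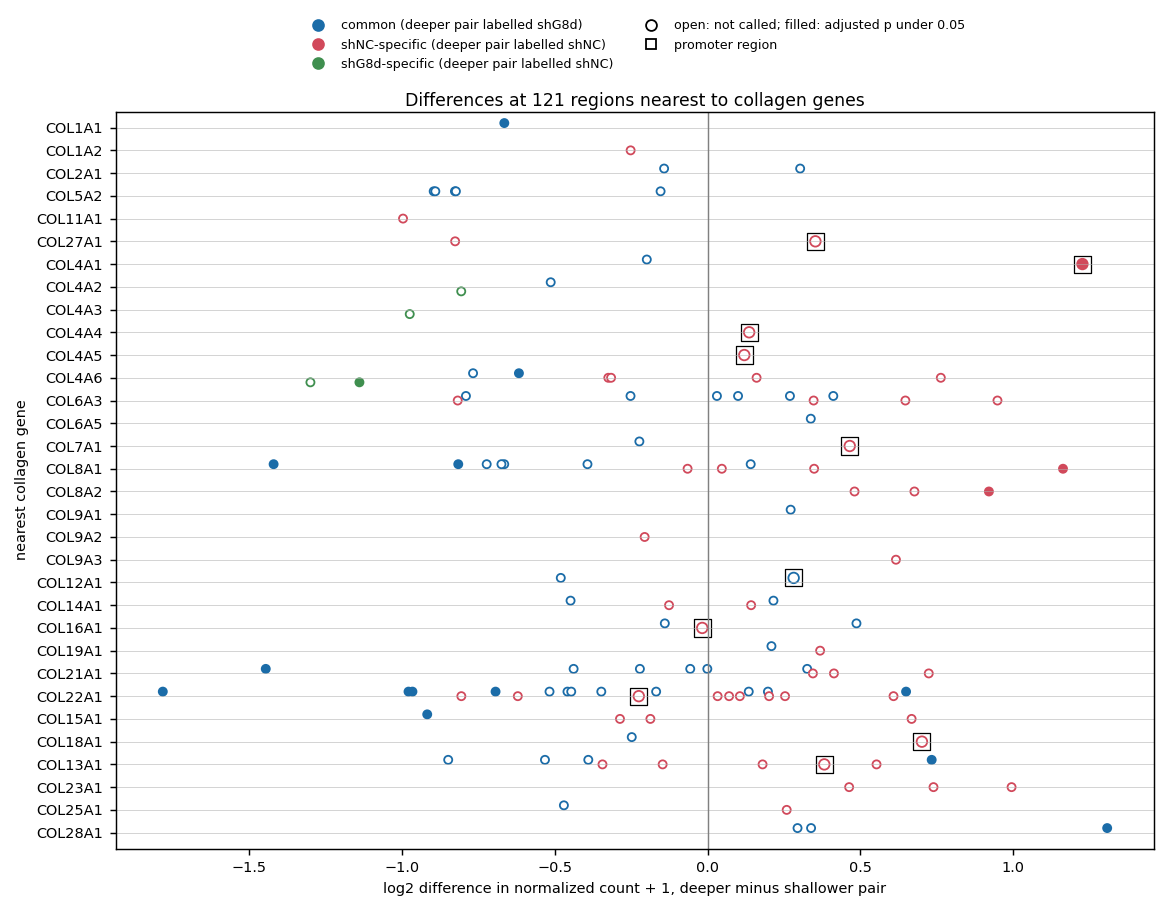
Log2 difference (deeper minus shallower pair) of each of the 121 collagen regions, 1 line per gene, coloured by region set, with a square around promoters. Filled points passed the limma test and open points did not; called regions lie on both sides of 0, 6 above and 11 below.

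Collagen promoters rarely passed the test between the pairs, and their signal was low. The median was 42.6 normalized counts for the 10, against 85.5 for all promoters. For the 9 shNC-specific ones it was 40.7, against 48.3 for all promoters of that set. The part of this level in the number of calls was not tested. Of 10 promoters 1 was higher in the deeper pair, 0 were lower and 9 did not pass (limma), and at an unadjusted p under 0.05 and by limma voom the counts were the same, 1 and 0. The 9 shNC-specific promoters gave that 1 call, where 29.7% of all 2807 such promoters were higher and 0.926% lower. The single common promoter, at COL12A1, was not called, where 19.9% and 11.7% of common promoters were. The median log2 difference was 0.35 for the 9 and 0.49 for all promoters of that set.

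The promoter that passed was the one shared by COL4A1 and COL4A2, which encode the most widespread chains of the basement membrane network. The region lies on chromosome 13, 15 bp from the COL4A1 start, and is annotated at the COL4A2 promoter. Deeper A and B had 37.0 and 54.9 normalized counts there, shallower A and B 32.6 and 10.5, and values below follow that order. The pairs did not overlap, yet 37.0 and 32.6 were close, and shallower B stood far below the rest with 9 reads. The log2 difference was 1.23 (SE 0.434, limma adjusted p = 0.0464). It lost the threshold in 6 of 12 other fits, among them equal totals (0.89, limma adjusted p = 0.116) and those without deeper A (1.504, 0.0882), deeper B (0.95, 0.346) or shallower B (0.46, 0.370), while without shallower A it was 1.997.

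The other type IV promoters were close to even. The promoter shared by COL4A5 and COL4A6, listed under COL4A5, whose chain serves specialised basement membranes together with those of COL4A3 and COL4A4, had 32.8 and 25.8 against 29.0 and 24.6 on chromosome X (log2 difference 0.12, limma adjusted p = 0.839). The promoter shared by COL4A3 and COL4A4 on chromosome 2, listed under COL4A4, had 37.0 and 48.4 against 43.5 and 33.98 (0.14, limma adjusted p = 0.788). In both the pairs overlapped.

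The promoter of COL7A1, the anchoring fibril chain, had 99.3 and 117 against 108 and 56.2 on chromosome 3. Shallower A lay between the deeper libraries and shallower B well below them, so the pairs overlapped (log2 difference 0.47, SE 0.264, limma adjusted p = 0.210). The COL18A1 promoter on chromosome 21, the source of a basement membrane proteoglycan, had 46.3 and 33.9 against 37.5 and 15.2 (0.70, SE 0.398, limma adjusted p = 0.211). The COL12A1 promoter on chromosome 6, which serves a chain that decorates collagen fibrils, had 205 and 182 against 184 and 137 (0.28, SE 0.192, limma adjusted p = 0.304; -0.07 with equal totals). Here too shallower A fell within the deeper range and shallower B below it. Without shallower A, which leaves shallower B alone in its pair, the differences were 0.93 (COL7A1), 1.32 (COL18A1) and 0.49 (COL12A1). Without shallower B they were at most 0.08.

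The remaining promoters did not pass. COL27A1, a fibrillar collagen of cartilage, had 53.9 and 50.03 against 42.3 and 38.7, with no overlap (0.35, limma adjusted p = 0.397). COL13A1, a transmembrane collagen, had 45.4 and 60.5 against 47.1 and 33.98 (0.38, limma adjusted p = 0.383). COL16A1, a fibril-associated chain, had 41.2 and 43.6 against 65.2 and 28.1 (-0.02, limma adjusted p = 0.977), and COL22A1, a chain of tissue junctions, had 26.1 and 30.7 against 36.2 and 30.5 (-0.22, limma adjusted p = 0.673). In COL16A1 the shallower libraries enclosed the deeper ones. Shallower B was the lowest library at 9 of the 10 collagen promoters (90%), against 63.1% of shNC-specific promoters and 46.3% of all promoters. Without it COL16A1 was at -0.61 (limma adjusted p = 0.162) and without shallower A at 0.58 (0.228). The promoters of COL4A5, COL4A4, COL13A1, COL27A1 and COL22A1 lay between -0.35 and 0.29 without shallower B.

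**Figure D2:**
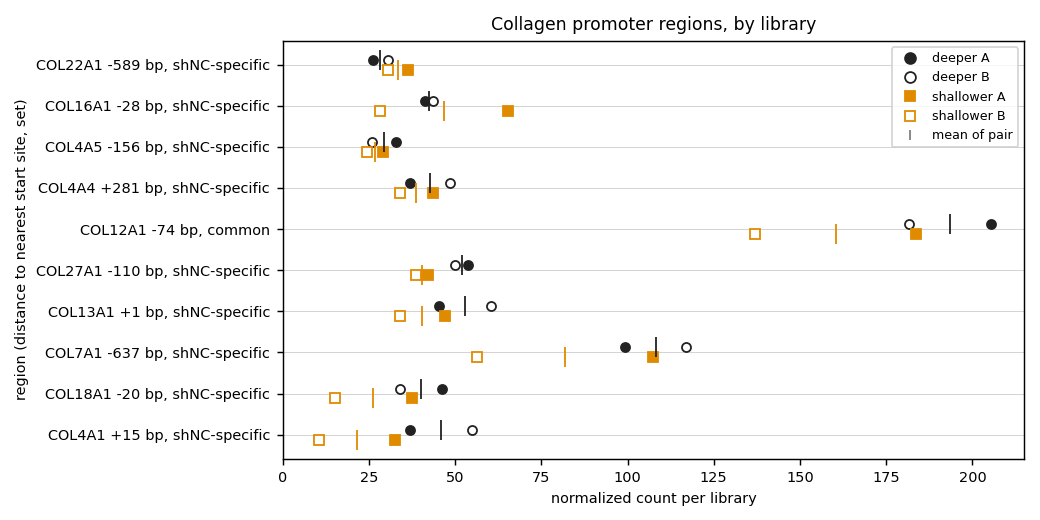
Normalized count of each library at the 10 collagen promoter regions, with circles for the deeper and squares for the shallower pair, filled for A and open for B, and a tick at each pair's mean. At COL4A1 the shallower libraries, 32.6 and 10.5, lie below the deeper ones, and at 9 of 10 promoters the lowest point is shallower B.

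Away from promoters, type IV genes had 12 regions, of which 2 were lower and 0 higher, both at COL4A6. Over all genes 15.8% of common, 0.986% of shNC-specific and 70.1% of shG8d-specific regions other than promoters were lower. Higher were 8.53%, 10.8% and 0.00%. COL4A6 encodes a chain of the basement membranes under several epithelia and had 8 regions on chromosome X. The intronic region 38699 bp from its start, shG8d-specific, had 50.5 and 81.5 against 126 and 162. Both deeper libraries lay below both shallower ones (-1.14, SE 0.245, limma adjusted p = 0.00322, and 0.0886 without deeper A). The common region at 41921 bp had 100.1 and 139.6 against 169 and 196, again without overlap (-0.62, SE 0.204, limma adjusted p = 0.0342; without deeper A -0.38, 0.443; without shallower B -0.51, 0.0503). A shNC-specific region between them, at 40266 bp, had 57.2 and 53.3 against 76.1 and 63.3 (-0.32, limma adjusted p = 0.379). These 3 regions span 3222 bp, come from all 3 sets and are all lower in the deeper pair. Over all genes 58.1% of common, 33.5% of shNC-specific and 99.4% of shG8d-specific regions lay below 0. For the shG8d-specific region the direction was thus nearly set by its list, and the agreement is no support. By the deposited labels the common one would be lower under shG8d and the other ones lower under shNC.

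The other type IV regions did not pass. COL4A2 had a shG8d-specific intronic region 1228 bp from its start with 23.6 and 40.3 against 54.4 and 55.1 (-0.81, limma adjusted p = 0.0764). Its deeper libraries were the lower ones, unlike at the COL4A1 promoter, and the difference between these 2 regions was not tested. COL4A2 at 12663 bp was at -0.51 (limma adjusted p = 0.147), COL4A1 at 84799 bp at -0.20 (0.699) and COL4A3 at 63749 bp at -0.97 (0.0835). The other COL4A6 regions went both ways. The shG8d-specific region at 139062 bp had the type IV difference of largest size, at -1.30 (limma adjusted p = 0.0530), and the common region at 169871 bp was at -0.77 (0.0684). The shNC-specific regions were at 0.76 (limma adjusted p = 0.0621, at 167962 bp), 0.16 (0.710, at 125257 bp) and -0.32 (0.549, at 129138 bp). By set, 4 of 4 common, 2 of 7 shNC-specific and 4 of 4 shG8d-specific type IV regions lay below 0, where 58.1%, 33.5% and 99.4% of all regions of these sets did. With equal totals 5 of the 7 did. The median of all shNC-specific regions was then -0.10, so most regions of that set also lay below 0.

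Fibrillar genes had 12 regions, of which 1 was lower and 0 higher. The call was at COL1A1, a chain of type I collagen, in an intron 1401 bp from the start on chromosome 17. It had 105 and 105 against 156 and 179, so the deeper libraries were even and both lower (-0.66, SE 0.194, limma adjusted p = 0.0187). Without deeper A or B the adjusted p was 0.145 and 0.131, at -0.67 and -0.66. COL1A2, the partner chain, had 1 intronic region at 29410 bp with 25.2 and 22.6 against 15.7 and 51.6, where the shallower libraries lay on either side (-0.25, limma adjusted p = 0.722).

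COL5A2, a chain that sets fibril width, had 5 intergenic common regions upstream on chromosome 2, none of them called. The differences were -0.90 (limma adjusted p = 0.0561) at -42713 bp, -0.89 (0.0676) at -30524 bp, -0.83 (0.105) at -96611 bp, -0.82 (0.109) at -74765 bp and -0.15 (0.765) at -122823 bp. All 5 were below 0, and all except the one at -122823 bp passed with equal totals (limma adjusted p from 0.00825 to 0.0197). At that scaling 36.6% of all common regions, promoters included, were lower, a larger share than in the main fit. The scaling thus added lower calls across the whole set and not at COL5A2 alone. COL11A1, a minor fibrillar chain of cartilage, was at -0.996 (limma adjusted p = 0.0654) in its 1 region, and the intronic region of COL27A1 at 1179 bp was at -0.83 (0.0532), opposite in sign to its promoter. Of the fibrillar regions 7 of 8 common ones (median -0.74) and 3 of 4 shNC-specific ones (median -0.54) lay below 0. Over all regions of these sets 58.1% and 33.5% did. With equal totals 8 and 3 of the fibrillar ones did. The medians of all common and all shNC-specific regions were then -0.47 and -0.10, so most regions of both sets also lay below 0. Of the 8 common ones 5 were the COL5A2 regions, whose mean counts of 27.2 to 49.4 lay below the median of 81.5 for all common regions.

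Type VI collagen forms beaded filaments around cells, and its 11 regions, 10 at COL6A3 and 1 at COL6A5, gave 0 calls (limma; 2 at an unadjusted p under 0.05, both lower, and 1 by limma voom, at 151057 bp). COL6A3 ranged from -0.82 to 0.95 on chromosome 2. Its lowest adjusted p was at 151057 bp, with 40.4 and 33.1 against 59.2 and 69.1 (-0.79, limma adjusted p = 0.0505). Below 0 lay 2 of 7 common and 1 of 4 shNC-specific type VI regions, where 58.1% and 33.5% of all regions of these sets did. With equal totals 6 of the 7 and again 1 of the 4 did. The medians of all common and all shNC-specific regions were then -0.47 and -0.10, so most regions of both sets lay below 0. COL7A1 had 1 further region, at the end of the neighbouring gene UQCRC1, with 130.4 and 136 against 157 and 155 (-0.22, limma adjusted p = 0.412).

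The short chain collagens COL8A1 and COL8A2 build hexagonal networks in vessel walls and the cornea. They had 14 regions, 2 higher and 2 lower. COL8A1, on chromosome 3, was called both ways. Its intergenic common region at -88251 bp had 26.9 and 25.8 against 66.4 and 78.5, with the shallower libraries far above (-1.42, SE 0.295, limma adjusted p = 0.00251, and under the threshold in every other fit). The common region at -1225 bp, in an intron of MIR548G, had 59.8 and 70.2 against 90.6 and 145 (-0.82, SE 0.248, limma adjusted p = 0.0230). It was lost without deeper A (-0.70, limma adjusted p = 0.175), deeper B (-0.93, 0.0552) or shallower B (-0.48, 0.185). The shNC-specific intronic region at 20634 bp ran the other way, with 85.8 and 62.9 against 25.4 and 41.0 (1.16, SE 0.307, limma adjusted p = 0.0109, and 0.176 without deeper A). None of these 3 had overlapping pairs, which the test itself favours in called regions.

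COL8A2 had a shNC-specific intergenic region at -9952 bp on chromosome 1 with 63.1 and 70.2 against 41.1 and 29.3. Both deeper libraries were higher (0.92, SE 0.291, limma adjusted p = 0.0281). The call was lost with equal totals (0.58, 0.141) and without deeper A (0.127), deeper B (0.196) or shallower B (0.0827). A neighbouring region at -8613 bp was at 0.68 (limma adjusted p = 0.112).

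Fibril-associated collagens with interrupted helices sit on the surface of fibrils and bind them to other matrix. They had the most regions, 44, with 1 higher and 5 lower. COL22A1, on chromosome 8, had 21 of them and 5 of these 6 calls. Its intronic common region at 57623 bp had 33.7 and 20.2 against 83.4 and 102. This was the difference of largest size among collagen regions, and both shallower libraries were far above both deeper ones (-1.78, SE 0.303, limma adjusted p = 0.000596). The intergenic region at -301742 bp had 110.2 and 106 against 232 and 193 (-0.97, SE 0.189, limma adjusted p = 0.00173). These 2 calls passed in every other fit.

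COL22A1 had 2 further lower calls and 1 higher call, each lost without 1 or both deeper libraries. The intronic region at 82766 bp had 146 and 208 against 279 and 287 (-0.69, SE 0.187, limma adjusted p = 0.0125; without deeper A -0.44, 0.322). The intronic region at 121442 bp had 36.2 and 34.7 against 72.5 and 69.1 (-0.98, SE 0.276, limma adjusted p = 0.0157; without deeper A -1.01, 0.0797, and without deeper B -0.95, 0.0873). A shNC-specific region 874 bp away, at 120568 bp, was at -0.81 (limma adjusted p = 0.0855), so both lay below 0 under exchanged labels. The higher call was the intergenic region at -39138 bp, with 316 and 291 against 191 and 194 (0.65, SE 0.168, limma adjusted p = 0.00970). It was lost with equal totals (0.30, 0.201) and without deeper A (0.59, 0.171) or B (0.71, 0.0776). In each of these called regions the pairs did not overlap, which the test itself favours.

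COL21A1, a chain of the same class found in vessel walls, had 9 regions on chromosome 6, 1 of them called. The common region at 23515 bp, in an intron, had 64.8 and 56.5 against 164 and 169. The libraries of each pair were close together and the pairs far apart (-1.45, SE 0.211, limma adjusted p = 0.000166, the lowest of all collagen regions), and every other fit kept the call. The other 8 regions of COL21A1 lay between -0.44 and 0.72. COL12A1 had a second common region, in an intron at 9513 bp, at -0.48 (limma adjusted p = 0.241).

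**Figure D3:**
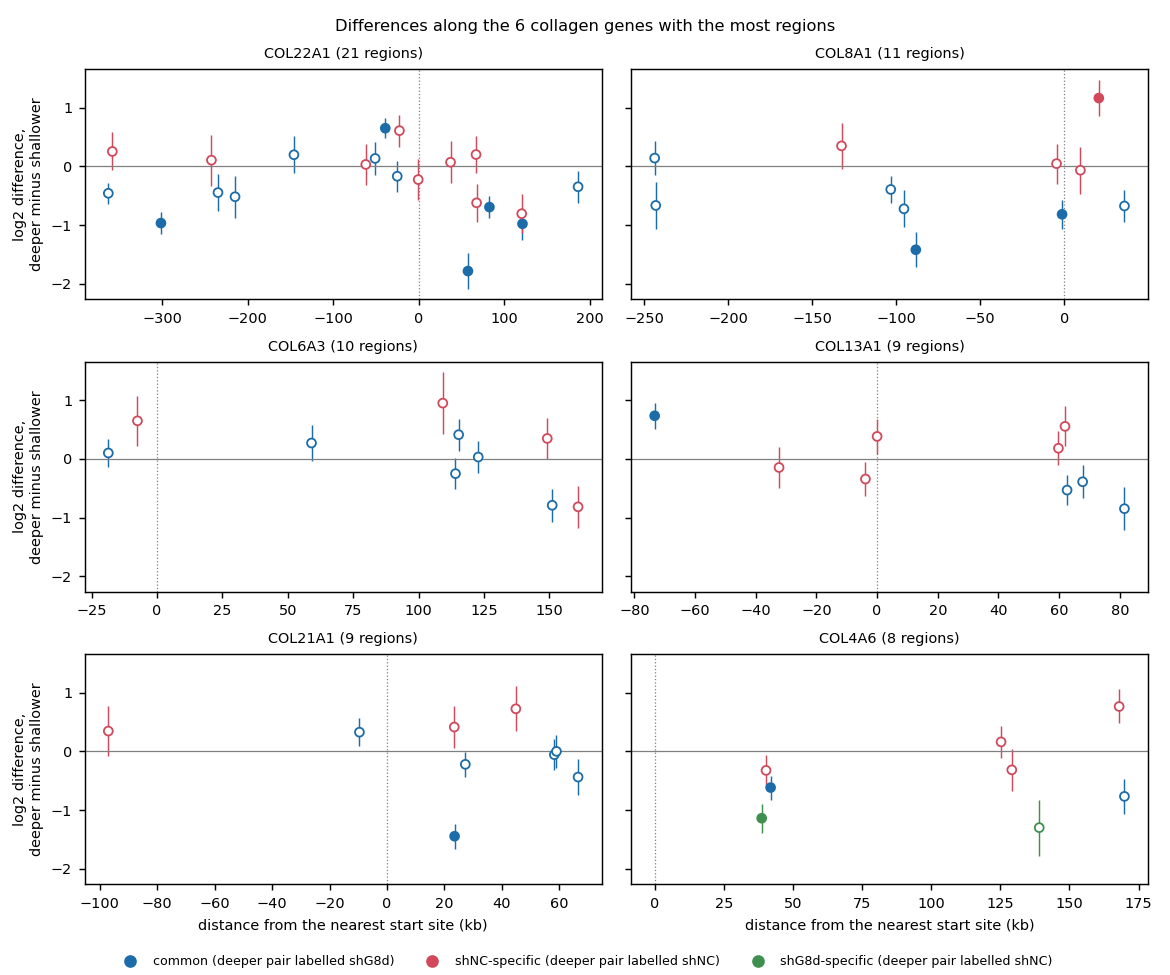
Log2 difference (deeper minus shallower pair) of each region against its distance from the nearest start site in kb, for the 6 collagen genes with the most regions, coloured by region set; bars are standard errors, filled points passed the limma test and open points did not. COL22A1 and COL8A1 hold called regions on both sides of 0, and COL6A3 holds none.

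The multiplexins COL15A1 and COL18A1 carry sugar chains at basement membranes. COL15A1 had a common intronic region at 76168 bp on chromosome 9 with 103 and 85.5 against 180.0 and 176. The deeper libraries were the lower ones without overlap (-0.92, SE 0.197, limma adjusted p = 0.00320, and 0.0646 without deeper B). The second COL18A1 region, intergenic at -1594 bp, was at -0.25 (limma adjusted p = 0.421), opposite in sign to its promoter.

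Among the transmembrane collagens, which span the plasma membrane, COL13A1 had 1 call in 9 regions on chromosome 10. Its intergenic common region at -73325 bp had 125 and 122 against 83.4 and 65.6, with both deeper libraries higher (0.73, SE 0.219, limma adjusted p = 0.0211). The call was lost with equal totals (0.38, 0.197) and without deeper A (0.71, 0.170) or B (0.75, 0.126). Of 2 COL13A1 intronic regions 691 bp apart, the shNC-specific one at 61940 bp was at 0.55 (limma adjusted p = 0.252) and the common one at 62631 bp at -0.53 (0.138), on opposite sides of 0. COL23A1 had 3 intronic regions at 0.463, 0.739 and 0.995, none of them called, with limma adjusted p from 0.0998 to 0.411. COL28A1, a collagen best known from nerve, had 3 common intronic regions on chromosome 7, all above 0. The region at 96715 bp had 136 and 109 against 45.9 and 51.6, the log2 difference farthest above 0 among collagen regions (1.31, SE 0.237, limma adjusted p = 0.000965), and every other fit kept the call.

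**Figure D4:**
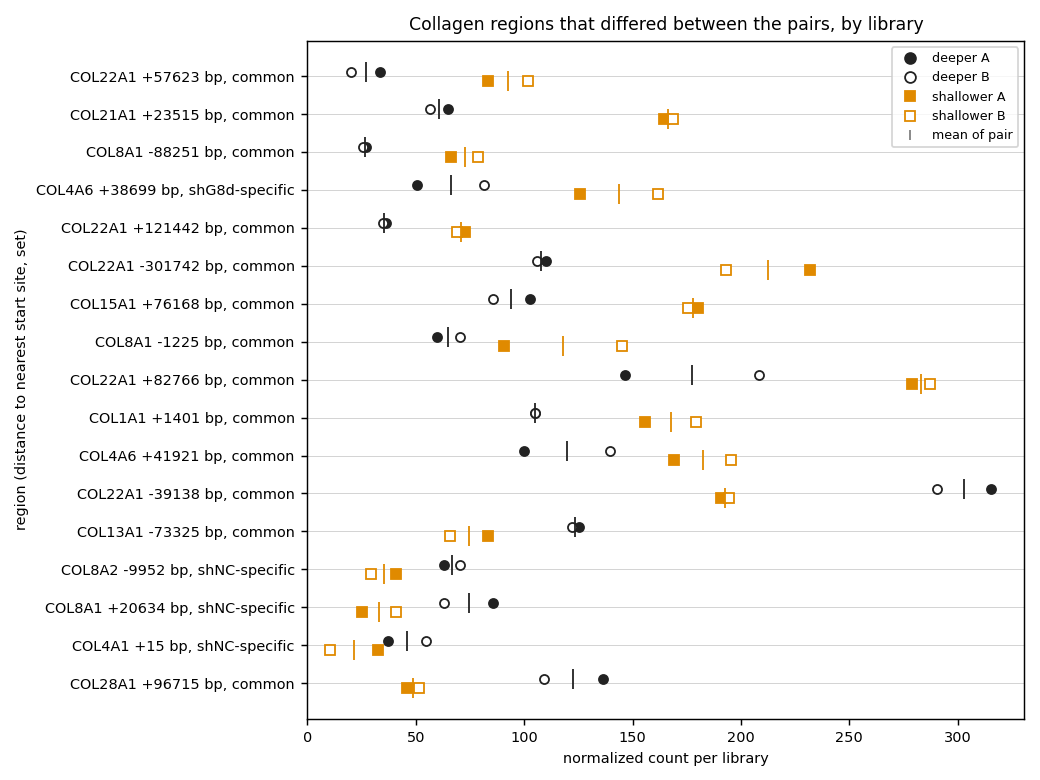
Normalized count of each library at the 17 collagen regions that passed the limma test, with circles for the deeper and squares for the shallower pair, filled for A and open for B, and a tick at each pair's mean. In the 6 higher regions both deeper libraries lie above both shallower ones, and in the 11 lower regions below them. The regions were picked by the test on these same values, which favours such separation.

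Of the 17 calls 5 held in all 12 other fits (COL22A1 at 57623 and -301742 bp, COL21A1 at 23515 bp, COL8A1 at -88251 bp and COL28A1 at 96715 bp). The fit without a filter, 1 of the 12, repeats the main fit because the filter removed 0 regions. The other calls were each lost without 1 or both of the deeper libraries, in fits with 1 library in that pair. Calls over all regions also fell in these fits. Of the 6 higher calls 4 were lost with equal totals, and no call changed sign.

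Genes that make, process and read collagen were described at 1 promoter per gene, where 22.6% of 8964 genes were higher and 9.86% lower, with a median of 0.19. Enzymes that modify and fold collagen had a promoter region at 7 of 17 genes, 3 higher and 0 lower. P4HB, the shared subunit of prolyl hydroxylase, had 298 and 239 against 137 and 123 (1.036, SE 0.184, limma adjusted p = 0.000849). COLGALT1, a galactosyltransferase of collagen, was at 1.11 (limma adjusted p = 0.00751, and 0.108 without deeper B), and PLOD1, a lysyl hydroxylase, at 0.68 (0.0303, 0.271 with equal totals, and 0.171, 0.195 and 0.0710 without deeper A, deeper B and shallower B). The 7 had a median of 0.33.

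Processing and cross-linking enzymes had a promoter at 3 of 13 genes, 1 higher and 1 lower. LOXL1, a lysyl oxidase relative, had 37.9 and 37.9 against 20.5 and 5.86, with 5.86 worth few reads (1.68, SE 0.475, limma adjusted p = 0.0160). LOXL1 was at 0.85 (limma adjusted p = 0.101) without shallower B and 2.50 without shallower A, and was also lost without deeper A (0.172), without deeper B (0.158) and with separate fits per set (0.0542). LOX, which cross-links fibrils, had 69.0 and 97.6 against 129 and 125, and was lower (-0.63, SE 0.222, limma adjusted p = 0.0466; without deeper A -0.38, 0.480, and without deeper B -0.87, 0.0562). Receptors had a promoter at 3 of 10 genes. ITGB1, the beta chain of the collagen-binding integrins, was higher at 119.5 and 133 against 60.4 and 39.8 (1.34, SE 0.248, limma adjusted p = 0.00110). DDR1, a collagen-activated kinase of epithelia, was lower at 75.7 and 69.4 against 129 and 99.6 (-0.64, SE 0.225, limma adjusted p = 0.0455, and 0.166, 0.244 and 0.157 without deeper A, deeper B and shallower A). ITGA2, an integrin chain that pairs with ITGB1, was at 0.14 (limma adjusted p = 0.684). MMP1, a collagenase and the 1 of 6 collagen-degrading proteases with a promoter region, was at 0.61 (limma adjusted p = 0.103). P4HB and ITGB1 kept their calls in every other fit.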

How the data were processed

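ATAC-seq was made from 4 MCF10A libraries. Per the submitters' processing notes, CASAVA 1.4 and the build hg19 were used; the aligner, peak caller and normalization method: not given in the sources used here. Per the file headers, the authors deposited a log10 normalized value per region and library, a log2 fold change and a p-value. Raising 10 to the deposited log10 values gave whole multiples of 1 step per library (100% within 0.05 reads), so reads were recovered. The 4 steps recur in every region set under exchanged labels, and libraries were named by step. Regions needed 10 normalized counts in 2 libraries, which removed 0. Differences of log2(normalized count + 1) were tested in R 4.3.3 with limma 3.58.1, its variances following the mean by a trend, checked on simulated data, with Benjamini-Hochberg adjustment over 58127 regions and a threshold of 0.05. The design assumed linear normalized values, and the deposited log10 values were converted to them. The authors' log2 fold change differed from the ratio of means by at most 0.00920. Median reads per region were 65, 68, 48 and 49. The alternatives were pseudocounts of 5 and 0.5, no filter, a filter of 30, equal library totals, limma voom on the recovered reads, a replicate block, each library left out, a promoter window of 1000 bp and, added after the data were seen, a separate fit per region set. Members, gene lists and tests were chosen with earlier results of these data known. The plan named every collagen promoter, 12 collagen genes whatever their values and up to 5 called regions per set and direction. It also named the genes with most regions and up to 3 called promoters per pathway list and direction. The text names all 17 called collagen regions. Those beyond the plan, such as COL15A1 at 76168 bp, were named after their values were seen. So were COL23A1, COL5A2, COL11A1 and the other collagen regions that did not pass.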

Additional observations from a re-analysis of the deposited data

How the results depend on the processing

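Collagen counts of calls moved mostly with the scaling and with single libraries, and no called region changed sign. With equal totals the common regions other than promoters had 1 higher and 29 lower, the shNC-specific promoters 0 higher, the other shNC-specific regions 1 higher and 5 lower, the shG8d-specific regions 4 lower, and all collagen regions 2 higher and 38 lower. The balance of the shNC-specific regions other than promoters, 2 higher and 0 lower before, was thereby turned. At this scaling 28.1% of all regions were lower and 4.44% higher. Lower were 36.6% of all common and 93.4% of all shG8d-specific regions. Of all shNC-specific regions 5.69% were higher and 6.31% lower, where 13.2% and 0.979% were before. Limma voom and the replicate block each gave 1 lower among shNC-specific regions other than promoters, 3 lower among shG8d-specific ones and 17 lower in all. Of all regions 14.0% (voom) and 13.7% (block) were lower, and of all shG8d-specific ones 75.9% and 74.6%. Of all shNC-specific regions 1.31% and 1.29% were lower. A pseudocount of 5 gave 2 lower in the shG8d-specific set, where 71.5% of all regions were lower. A filter of 30 gave 0 higher among shNC-specific promoters. Of all shNC-specific regions, promoters and others together, 17.2% were higher. All shares in this section take promoters and other regions together. In the main fit 29.7% of shNC-specific promoters and 10.8% of the other regions of that set were higher. Separate fits per region set, added after the data were seen, gave 16 lower among common regions other than promoters and 4 lower shG8d-specific regions. They gave 0 higher shNC-specific promoters, 1 higher among the other shNC-specific regions and 20 lower in all. Of all regions 14.8% were lower in these fits, with 18.7% of common and 80.8% of shG8d-specific ones, and 5.60% of shNC-specific ones were higher. Leaving out 1 library at a time gave 1 to 4 higher and 6 to 16 lower among common regions other than promoters, 0 to 1 higher common promoters, 0 to 3 higher shNC-specific promoters, 0 to 4 higher and 0 to 3 lower among other shNC-specific regions, 1 to 2 lower shG8d-specific regions, and 1 to 11 higher and 7 to 21 lower in all. The lone library of a pair is then assumed to vary like the other pair. Calls over all 58127 regions moved as well. In both directions they fell without either deeper library and rose without shallower A. The other 109 of 156 counts stayed within 1.5 times, but not all of them could have moved. The fit without a filter repeats the main fit, since the filter removed 0 regions, and a count of 0 in both fits was scored as unchanged. By letter the pairs did not vary together: the correlation of A deviations between the pairs was -0.0039 over 58127 regions. That value cannot tell whether libraries of the same letter were made together. The limits are 2 libraries per pair, labels exchanged between region sets and a median of 48 to 68 reads per region.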
